A study of Mus musculus with 6 samples.

Results

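Antisense RNAs are transcripts read from the strand opposite a gene, and this account describes the ones with a high signal while fibroblasts were turned towards blood. Of 26323 genes in the deposited gene table, 1218 carry the biotype antisense, and 73 of these reached a log2 value of 7.5 on at least 1 of 6 arrays. Those 73 are the expressed antisense RNAs described here, and they were chosen by these array values. Where an antisense RNA is named for a gene, or lies over one in the RefSeq annotation, the values of that partner gene are given beside it. The untreated cells were wild-type mouse embryonic fibroblasts (MEFs) from E14.5 embryos, which had been sorted free of cells bearing CD41, CD31, c-KIT or CD45. The other cells were the same kind of MEFs, also wild-type, transduced with lentiviruses carrying ERG, GATA2, LMO2, RUNX1c and SCL. They were sorted on day 8 for CDH5, a junction protein of endothelium, or on day 12 for c-KIT, a receptor of blood progenitors. Each of the 3 groups has 2 Mouse Exon 1.0 ST arrays, and the days and surface markers of the sorted groups change together. Transduction, day and sort can therefore not be told apart in any comparison with untreated MEFs.

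Some antisense RNAs act on the gene they lie across, by holding its promoter silent, by pairing with its transcript or through the act of transcription alone. Others are host transcripts, long RNAs from which microRNAs are cut. Many have no known role. Bodies such as the nuclear exosome degrade a large part of antisense RNA soon after it is made, so that these RNAs are often scarce next to messenger RNAs.

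Among the 73 expressed antisense RNAs 2 overlap microRNA genes in RefSeq, and the values of both were far apart between the groups. F630028O10Rik overlaps Mir223 on the X chromosome, and miR-223 is known in mouse and human as a microRNA of myeloid cells. Dnm3os overlaps Mir199a-2 and Mir214 on chromosome 1, and in the mouse it is known as their host transcript in mesenchyme, needed for normal growth of the skeleton. The mature microRNAs are shown because the signals of their hosts lie at opposite ends of the data. They are from RefSeq on GRCm38.p6, all on the plus strand, and the seed, bases 2 to 8, is in capitals.
mmu-miR-223-5p: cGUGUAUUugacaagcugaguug
mmu-miR-223-3p: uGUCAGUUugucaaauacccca
mmu-miR-199a-5p: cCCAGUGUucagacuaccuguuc
mmu-miR-199a-3p: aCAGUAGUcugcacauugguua
mmu-miR-214-5p: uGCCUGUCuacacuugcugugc
mmu-miR-214-3p: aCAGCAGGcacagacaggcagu
None of these 6 seeds is shared with another of the 6. Among all mature mouse sequences in the RefSeq table, miR-199a-3p shares its seed with miR-199b-3p, and miR-214-3p shares its seed with miR-761. The arrays measured the long transcripts and not the mature microRNAs.

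The host of miR-223 had values within the background in untreated MEFs and well above it in both sorted populations. Olfactory receptor genes, which few cells outside the nose use, give a view of that background: the 95th percentile of 799 of them lay between 5.94 and 6.04 on the 6 arrays. F630028O10Rik had log2 values of 3.51 and 3.45 in untreated MEFs, 8.25 and 8.89 in CDH5+ cells and 8.94 and 8.79 in c-KIT+ cells. All 4 sorted arrays lay above both untreated arrays, and the means exceeded the untreated mean by 5.09 on day 8 and by 5.39 on day 12. The array reads a gene in short stretches called probe sets, and the decimals of this gene's values fit a mean over 5 probe sets or more, which were not themselves identified. Of 6 blood markers, 5 moved the same way. The median of all 6 was 4.61 in untreated MEFs and reached 7.35 in CDH5+ cells and 8.34 in those sorted for c-KIT. Ptprc was the exception and stayed under the olfactory receptor percentile on every array. Its mean was 3.72 in untreated MEFs, 3.80 on day 8 and 4.19 on day 12 (limma, adjusted p = 0.89 and 0.229). Limma called the other 5 higher in each sorted population, beside 0.965% of all genes on day 8 and 3.24% on day 12. With 1 array left out these calls ran from 1 to 5 in CDH5+ cells, with 1 left without CDH5+ replicate 2, and from 4 to 5 in c-KIT+ cells. Vsig4, a complement receptor of macrophages, lies within 5 kb of F630028O10Rik in RefSeq, on the opposite strand. Its values were 3.06 and 3.47 in untreated MEFs, 3.80 and 3.70 in CDH5+ cells and 3.07 and 3.70 in c-KIT+ cells, and the difference in c-KIT+ cells was 0.12 ± 0.29 (SE; limma, adjusted p = 0.865).

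Dnm3os went the other way. Its values were 8.17 and 7.66 in untreated MEFs, 7.01 and 6.24 in CDH5+ cells and 4.25 and 4.12 in c-KIT+ cells, over at least 8 probe sets by the same inference. The groups did not overlap, with CDH5+ cells between the others, and the means differed from untreated MEFs by -1.29 and -3.73. The fibroblast markers, 6 genes of matrix and cell surface, had median levels of 10.15, 8.67 and 7.63 in the same order of groups. The means of Col1a1, Col1a2, Col3a1 and Thy1 fell in that order. Dcn, with means of 9.84, 10.93 and 9.23, was highest on day 8, and its untreated arrays read 11.86 and 7.82. Pdgfrb had means of 9.27, 6.76 and 6.84. Limma called 2 of the 6 lower in c-KIT+ cells and none in CDH5+ cells. With 1 array left out the calls ran from 0 to 4 in each: without CDH5+ replicate 1 there were 4 in both, and without untreated replicate 1 or either c-KIT+ array there were 0 in both. Dnm3, a dynamin of membrane scission, lies on the opposite strand and is the partner in the symbol. It had 5.43 and 5.26 in untreated MEFs, 4.88 and 4.33 in CDH5+ cells and 4.44 and 4.60 in c-KIT+ cells. It differed from untreated MEFs by -0.74 (limma, adjusted p = 0.26) in CDH5+ cells and by -0.83 (adjusted p = 0.136) in c-KIT+ cells, which did not pass the threshold of 0.05. Whether a change in cell makeup lay behind either host RNA was not tested. In arrays of bulk RNA, fewer cells of a type and less RNA per cell cannot be told apart.

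The stretches around the start of both host RNAs are shown because 4 of the 5 transduced factors, all but the bridging protein LMO2, bind DNA and belong to families with known motifs. Each runs from 250 bases before the annotated start to 50 after, from RefSeq on GRCm38.p6, plus strand, at chrX:96239676-96239975 for F630028O10Rik and chr1:162217373-162217672 for Dnm3os. Capitals mark each match, on either strand, to the GATA motifs AGATAA and TGATAA, the RUNX motif TGTGGT, the ETS motifs AGGAAG and CCGGAA and the E-boxes CAGCTG and CAGATG.
F630028O10Rik: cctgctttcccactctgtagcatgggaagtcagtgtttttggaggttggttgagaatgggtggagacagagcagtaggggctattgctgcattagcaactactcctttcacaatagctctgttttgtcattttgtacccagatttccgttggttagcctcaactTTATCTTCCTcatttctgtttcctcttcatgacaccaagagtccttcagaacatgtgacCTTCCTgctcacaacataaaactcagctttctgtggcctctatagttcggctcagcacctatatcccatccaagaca
Dnm3os: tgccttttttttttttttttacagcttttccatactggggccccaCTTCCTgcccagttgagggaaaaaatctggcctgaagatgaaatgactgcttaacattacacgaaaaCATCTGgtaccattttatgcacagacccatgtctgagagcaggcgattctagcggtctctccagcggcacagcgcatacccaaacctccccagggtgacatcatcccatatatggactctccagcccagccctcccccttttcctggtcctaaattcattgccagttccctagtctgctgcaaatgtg
The F630028O10Rik window held 1 AGATAA and 2 AGGAAG, and the first run of capitals is the AGATAA match overlapping an AGGAAG match. The Dnm3os window held 1 AGGAAG and 1 CAGATG. Among the 32851 promoter windows of the same length, AGATAA occurs in 11.2%, AGGAAG in 35.4% and CAGATG in 17.2%. The other 4 motifs had no match in either window and occur in 9.05% (TGATAA), 16.8% (TGTGGT), 14.9% (CCGGAA) and 16.3% (CAGCTG) of all windows.

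The rule reads a single value per RNA, the maximum over the arrays. These maxima ran from 7.52 to 11.20 with a median of 8.17. Just inside the threshold lay Gm15755 at 7.52 and A930015D03Rik, also at 7.52, and just outside lay Gm13609 at 7.47 and Gm16583 at 7.46. A total of 17 RNAs reached 7.5 on all 6 arrays and 14 on a single array. All 3 groups held a value of 7.5 or more for 30 of them. For 23 the value was reached in 1 group only, which was untreated MEFs for 9, CDH5+ cells for 5 and c-KIT+ cells for 9. By the same reading 5.99% of antisense rows, 4.59% of lincRNA rows, 5.5% of processed transcripts, 14.4% of pseudogenes and 28.2% of protein-coding genes reached the threshold.

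A high array value in 1 group makes an RNA both a member and a difference, so that a test on all 73 would favour change. Test results are therefore given only for the 36 RNAs whose mean over all 6 arrays was 7.5 or more, and the other 37 are described by their values. That mean came from the same arrays, so that an RNA high in some groups only could still reach it. Gm11505, Gm17041, Gm16034, 1700019G06Rik and Gm26716, the tested RNAs called with all arrays, each had a group mean under 7.5. For Gm11505 it was 3.80 in untreated MEFs. Over all 73, the c-KIT+ mean lay above the untreated mean for 44 and the CDH5+ mean for 51, with median differences of 0.16 and 0.26. Over all 26323 genes the medians were 0.05 and -0.07, and over the 3772 genes with a mean of 7.5 or more they were 0.15 and -0.21. The 36 tested RNAs had medians of 0.15 and 0.22. For 32 RNAs the c-KIT+ difference was within 0.5 of 0, for 15 it was 1 or more and for 11 it was -1 or less. Untreated MEFs held the highest mean for 17, CDH5+ cells for 27 and c-KIT+ cells for 29.

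**Figure D1:**
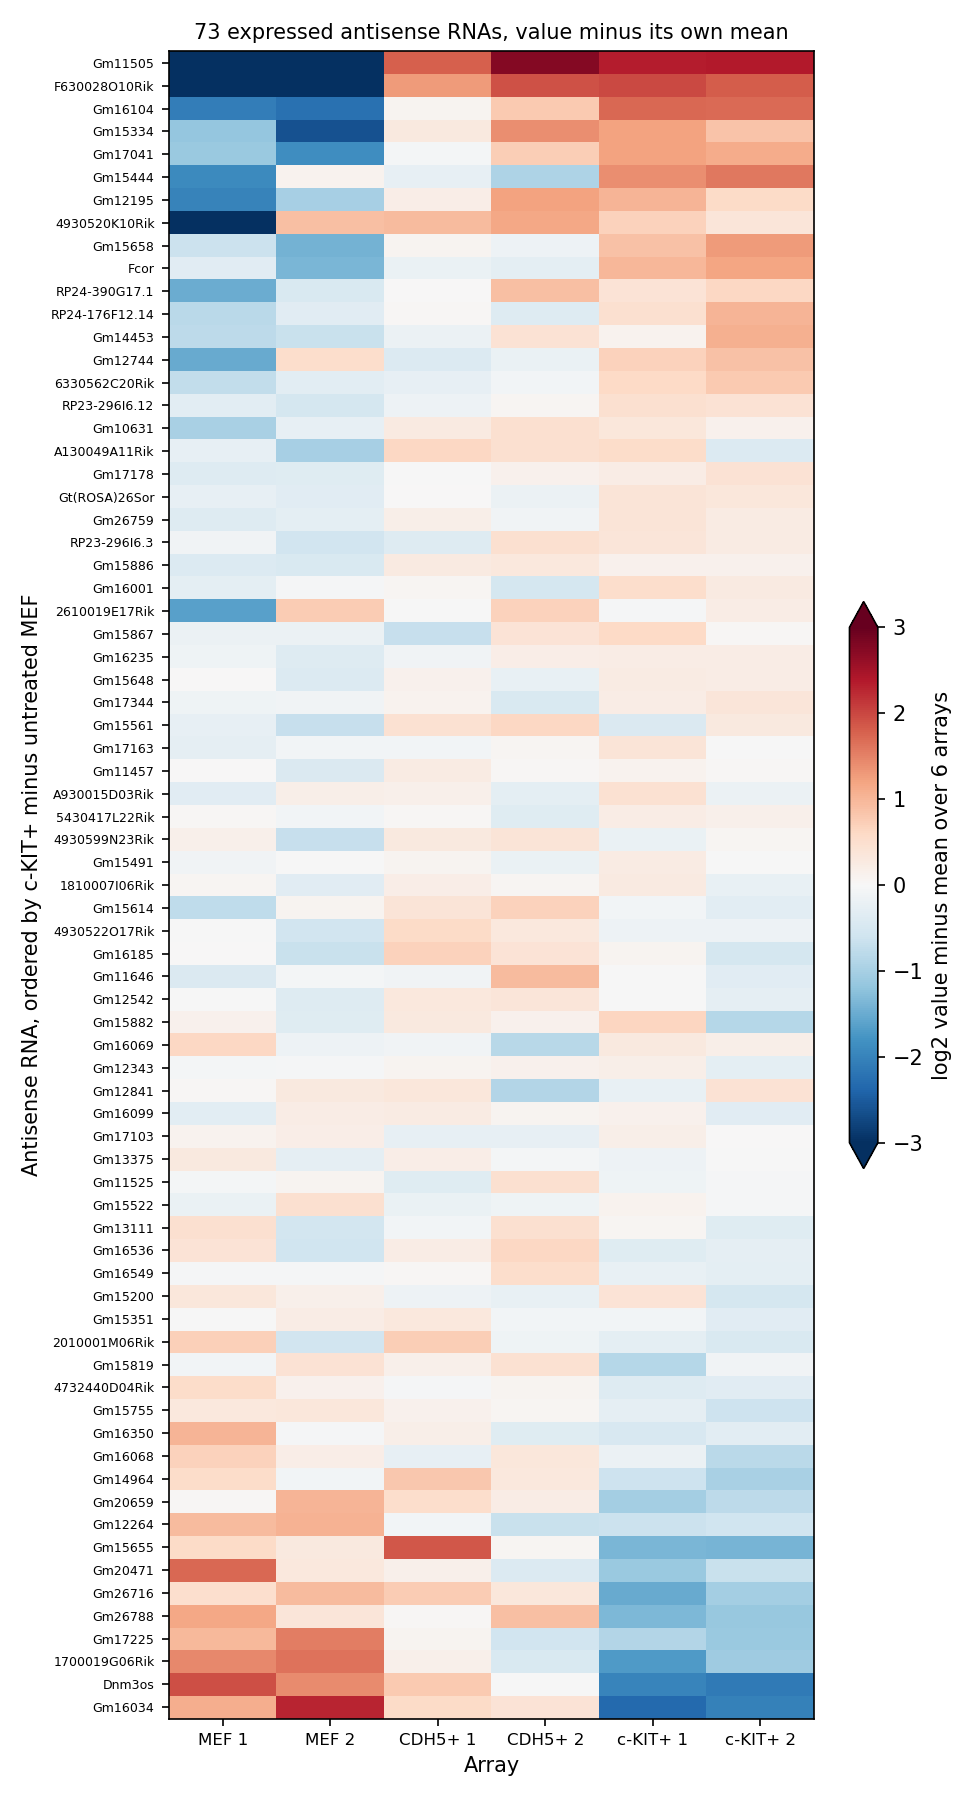
Each row is an expressed antisense RNA and each column an array; the colour is the log2 value minus the mean of that RNA over the 6 arrays, and rows are ordered by the difference of c-KIT+ and untreated means. Most of the strong colour lies at the upper and lower ends, where Gm11505 differed by 7.01 and Gm16034 by -3.86, and a few rows such as 4930520K10Rik split the 2 untreated arrays.

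Of the 36 tested RNAs limma called 1 higher and none lower when CDH5+ cells were set against untreated MEFs, and 8 had an unadjusted p under 0.05. Over all 3772 genes with a mean of 7.5 or more the shares called were 1.78% higher and 0.106% lower. In c-KIT+ cells 2 were called higher and 3 lower, beside 4.56% and 4.45% of those genes, and 11 had an unadjusted p under 0.05. The F-test over the 3 groups called the same 5 RNAs, beside 5.33%. Across all 26323 genes the unadjusted limma p against untreated MEFs was under 0.05 for 4026 on day 8 and 5546 on day 12. In c-KIT+ against CDH5+ cells limma made 0 calls among the 36 and 0 among the 26323 genes. In that comparison 5 of the 36 and 4205 of all genes had an unadjusted p under 0.05, and the lowest adjusted p among the 36 was 0.146. Counts this small do not set antisense RNAs apart from other genes of like signal.

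Gm11505 had the widest difference of the 73. Its values were 4.39 and 3.21 in untreated MEFs, 10.24 and 11.20 in CDH5+ cells and 10.80 and 10.82 in c-KIT+ cells. The sorted arrays lay far above the untreated ones and overlapped each other. The difference was 6.92 ± 0.48 (SE; limma, adjusted p = 0.00476) in CDH5+ cells and 7.01 ± 0.48 (adjusted p = 0.00212) in c-KIT+ cells. With an untreated mean of 3.80, it came among the tested RNAs through its sorted arrays, and these p-values rest on the same arrays. The value is the mean of 2 probe sets, and both were higher in sorted cells, to unequal extents. The c-KIT+ mean of the first exceeded its untreated mean by 3.96, and that of the second by 10.05, from 1.72 to 11.78. Without CDH5+ replicate 2 the CDH5+ call was lost (adjusted p = 0.0518), while the c-KIT+ call held with each array left out (adjusted p between 0.00764 and 0.0374). Neither a RefSeq gene nor a partner matched Gm11505.

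Gm17041 was the other tested RNA called higher in c-KIT+ cells. It had 7.75 and 7.0 in untreated MEFs, 8.81 and 9.61 in CDH5+ cells and 10.07 and 9.97 in c-KIT+ cells. The 3 groups did not overlap, and c-KIT+ cells exceeded untreated MEFs by 2.65 ± 0.37 (limma, adjusted p = 0.0181). Its 2 probe sets differed by 2.56 and 2.74, close to each other.

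All 3 RNAs called lower fell in c-KIT+ cells. Like Gm11505 and Gm17041, each had a group mean under 7.5, so that its choice and its p-value share the same arrays. Gm16034 read 8.72 and 9.93 in untreated MEFs, 8.20 and 8.06 in CDH5+ cells and 5.31 and 5.61 in c-KIT+ cells. It fell by 3.86 ± 0.41 (limma, adjusted p = 0.00806) on a single probe set, and both c-KIT+ values lay under the olfactory receptor percentile. 1700019G06Rik read 9.54 and 9.74, then 8.27 and 7.65, then 6.41 and 7.05 in the same order of groups. No 2 groups overlapped, with a difference of -2.91 ± 0.33 (adjusted p = 0.00941) in c-KIT+ cells and of -1.68 (adjusted p = 0.0959) in CDH5+ cells. Gm26716 read 8.33 and 8.77 in untreated MEFs, 8.59 and 8.16 in CDH5+ cells and 6.32 and 6.80 in c-KIT+ cells. Untreated and CDH5+ arrays overlapped, and the c-KIT+ difference was -1.99 ± 0.29 (adjusted p = 0.0202), with -2.25 and -1.74 in its 2 probe sets. Without c-KIT+ replicate 1, or without c-KIT+ replicate 2, the calls of Gm17041, Gm16034, 1700019G06Rik and Gm26716 were all lost, with adjusted p up to 0.166 and the direction kept.

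**Figure D2:**
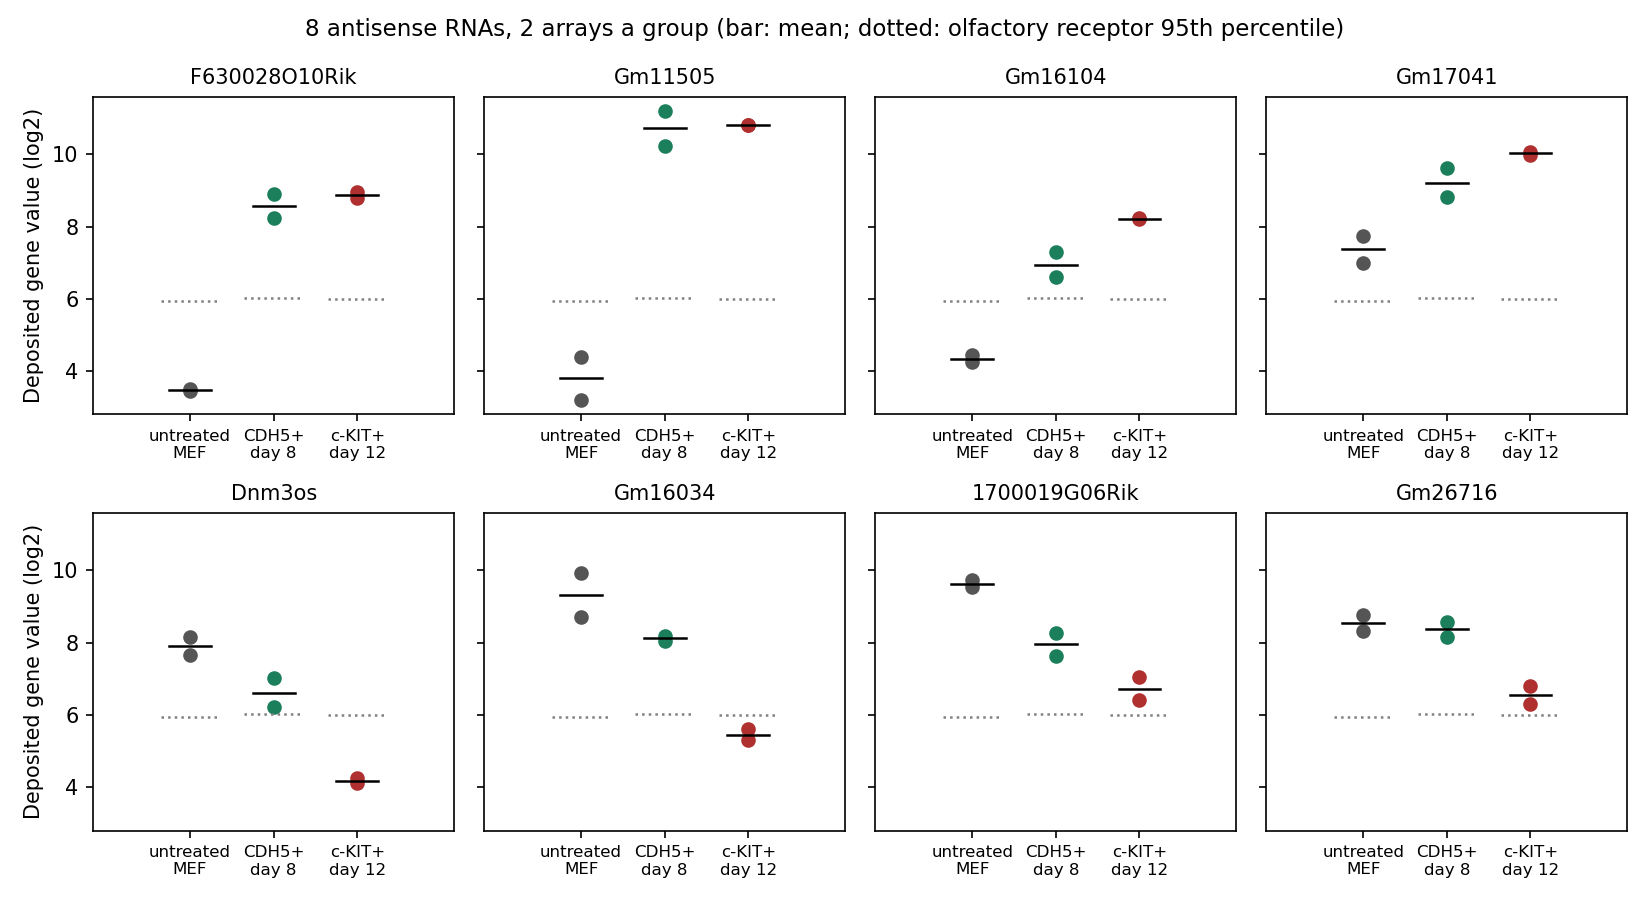
Deposited log2 gene values of 8 antisense RNAs, with a point for each array, a bar for the mean of the group and a dotted line at the 95th percentile of olfactory receptor genes. The upper row shows RNAs that were higher in sorted cells, among them F630028O10Rik at 3.45 and 3.51 in untreated MEFs, and the lower row RNAs that were lower in c-KIT+ cells, among them Dnm3os at 4.12 and 4.25.

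Some of the 37 RNAs with a lower mean differed as widely. Gm16104 had 4.44 and 4.27 in untreated MEFs, 6.60 and 7.30 in CDH5+ cells and 8.24 and 8.20 in c-KIT+ cells. The groups did not overlap, the means lay 2.60 and 3.87 above untreated MEFs, and its 2 probe sets differed by 4.39 and 3.35 in c-KIT+ cells. Gm15334, on 1 probe set, had 5.55 and 4.10, then 7.02 and 8.10, then 7.93 and 7.58. Its sorted arrays overlapped each other and lay above the untreated ones by 2.73 and 2.93. In the other direction Gm17225 had 6.97 and 7.54, then 6.08 and 5.43, then 5.13 and 4.91, which is -1.50 and -2.23 from untreated MEFs on 1 probe set. Gm12264 had 8.29 and 8.38, then 7.25 and 6.68, then 6.70 and 6.74, a difference of -1.37 in CDH5+ cells and of -1.62 in c-KIT+ cells. Fcor, a corepressor of Foxo1 in mouse fat cells that RefSeq lists as protein-coding, had 6.20 and 5.16, then 6.34 and 6.25, then 7.53 and 7.73. Its c-KIT+ arrays lay above the other 4. Mcemp1 and B4galt2, which lie within 5 kb of an antisense RNA without overlapping it, were called in c-KIT+ cells. They were picked after their values were seen and give no share to set against that of all genes. Over all genes limma called 3.24% higher and 2.72% lower in that comparison. Mcemp1, a membrane protein of mast cells near Fcor, was higher by 3.06 ± 0.36 (limma, adjusted p = 0.0112, and up to 0.11 with 1 array left out). B4galt2, a galactosyltransferase near Gm12841, differed by -1.44 ± 0.20 (adjusted p = 0.0185, and up to 0.177 with 1 array left out), while Gm12841 differed by -0.07.

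Among RNAs not named for a gene, the 5 with the highest means were Gm16185 (9.98), Gm17178 (9.84), Gm15648 (9.60), Gm26759 (9.58) and RP23-296I6.12 (9.55). All 5 had values between 9.02 and 10.66 on every array. Their c-KIT+ differences ran from 0.10 in Gm16185 to 0.88 in RP23-296I6.12 and their CDH5+ differences from 0.15 in Gm15648 to 0.88 in Gm16185, and limma called none of them. Both CDH5+ arrays of Gm16185 (10.66 and 10.40) lay above its 2 untreated arrays, with an unadjusted p of 0.0426. Under a filter on dim genes, RP23-296I6.12 and RP24-176F12.14 (8.00 and 8.47, then 8.85 and 8.42, then 9.29 and 9.82) were called higher in c-KIT+ cells, with adjusted p = 0.0371 and 0.0402. Gt(ROSA)26Sor, the transcript of the Rosa26 locus used in mice for transgenes that are active in most tissues, had 7.12 and 7.02 in untreated MEFs, 7.38 and 7.19 in CDH5+ cells and 7.74 and 7.70 in c-KIT+ cells. Its groups did not overlap, and the c-KIT+ mean lay 0.66 above the untreated one.

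The 2 untreated arrays disagreed for some RNAs. A gap of 1 or more separated them for 15 of the 73, against 6 between the CDH5+ arrays and 1 between the c-KIT+ arrays. The median absolute gap of the 73 had the same order of groups, at 0.47, 0.39 and 0.22. Over all genes the medians were 0.37, 0.28 and 0.18, so that this order was not particular to antisense RNAs. 4930520K10Rik, on 1 probe set, had 3.27 and 8.26 in untreated MEFs and between 7.72 and 8.53 on the 4 sorted arrays. Its second untreated value lay within the sorted range. 2610019E17Rik had 7.44 and 9.82 in untreated MEFs and between 9.03 and 9.76 in sorted cells. Gm12744 had 6.47 and 8.50 in untreated MEFs, 7.57 and 7.77 in CDH5+ cells and 8.67 and 8.85 in c-KIT+ cells. Its c-KIT+ difference of 1.27 (limma, adjusted p = 0.328) was 2.29 (adjusted p = 0.0126) without untreated replicate 2 and 0.26 (adjusted p = 0.604) without untreated replicate 1. Gm20659 had 9.35 and 10.33, then 9.84 and 9.55, then 8.31 and 8.55. It differed by -1.42 (adjusted p = 0.0865), and by -1.90 (adjusted p = 0.0331) without untreated replicate 1. The cell cycle markers also separated the untreated arrays, with a median of 3.06 higher in replicate 2 over 6 genes. So did single markers of other lists: replicate 2 was higher by 3.64 in Krt18 and 3.32 in Krt19, keratins of epithelium, and lay at -4.05 from replicate 1 in Dcn and at -2.19 in Col3a1, matrix genes of fibroblasts. The medians of the whole lists were 0.88 over 5 epithelial and -0.59 over 6 fibroblast markers. The part of any of these in the gaps was not tested.

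The number of probe sets behind each value is small. It was 1 for 33 of the 73, 2 for 23 and 3 or more for 17, where the number is inferred from the decimals of the values and is a minimum (9 for Gm15886). The median over protein-coding genes, inferred likewise, was 10. For the 23 RNAs with 2 probe sets, both could be read separately. In c-KIT+ cells against untreated MEFs their differences had the same sign for 19 of 23, and they were 1 or more apart for 9. Gm15658 was one of these: its first probe set read 10.17 and 9.02 in untreated MEFs and 9.59 and 9.39 in c-KIT+ cells, and its second 1.90 and 1.51 against 5.54 and 6.52. The second moved by 4.32 and the first by -0.10. Gm14453 likewise moved by 2.60 in its second probe set and by 0.02 in its first, and Gm14964 by -2.14 and by 0.08.

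**Figure D3:**
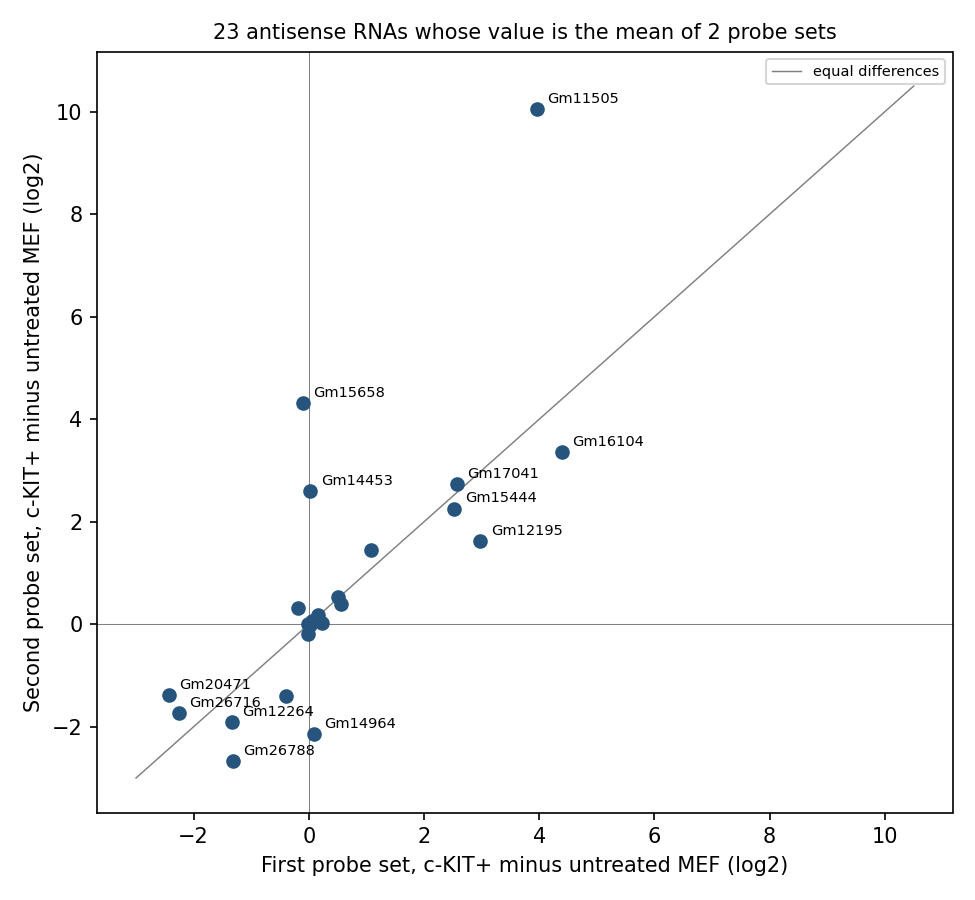
Each point is one of the 23 antisense RNAs with 2 probe sets, with the c-KIT+ minus untreated difference (log2) of the first probe set on the horizontal and of the second on the vertical axis; the line marks equal differences. Gm17041 sits on the line at 2.56 and 2.74, while Gm11505 (3.96 and 10.05), Gm15658 (-0.10 and 4.32) and Gm14453 (0.02 and 2.60) sit far above it.

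Partner genes were found for 28 of the 73 RNAs, giving 33 pairs with 33 partners. In 6 pairs the gene is named by the antisense symbol in RefSeq, and in the others it overlaps the RNA. For 22 pairs RefSeq placed the partner on the opposite strand, and for 11 it listed no strand. The choice of antisense RNAs read no partner value, and all 33 partners were tested, although those not named by a symbol were added after their values had been seen. In CDH5+ cells limma called 1 partner higher and none lower, beside 0.965% and 0.213% of all genes. In c-KIT+ cells it called 2 higher and 2 lower, beside 3.24% and 2.72% of all genes. Without either c-KIT+ array a single partner was called in c-KIT+ cells, Muc13.

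Muc13, a transmembrane mucin, lies opposite Gm15658. It had 4.39 and 4.48 in untreated MEFs, 9.36 and 9.14 in CDH5+ cells and 10.62 and 10.69 in c-KIT+ cells, and it rose by 4.82 ± 0.20 (SE; limma, adjusted p = 0.00119) and 6.22 ± 0.20 (adjusted p = 0.00043). Gm15658 had 6.03 and 5.26, then 6.76 and 6.55, then 7.56 and 7.96, differences of 1.00 and 2.11 that came from its second probe set in c-KIT+ cells. That probe set read 5.54 and 6.52 there, near the olfactory receptor percentile of gene values on these arrays (6.02 and 5.98). Rsbn1 overlaps A130049A11Rik, which RefSeq names Phtf1os, and its values were 6.78 and 6.40, then 7.5 and 7.68, then 8.31 and 8.38. Rsbn1 rose by 1.76 ± 0.22 (adjusted p = 0.0131) in c-KIT+ cells, beside 0.70 for A130049A11Rik, whose values were 7.21 and 6.46, then 8.09 and 7.95, then 8.02 and 7.05. The c-KIT+ and untreated arrays of A130049A11Rik overlapped. Phtf1, the gene in its RefSeq name, differed by -0.29 (adjusted p = 0.469).

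Both partners that fell did so in c-KIT+ cells. Dst, a linker of cytoskeletal filaments, had 8.22 and 7.70 in untreated MEFs, 7.40 and 7.43 in CDH5+ cells and 6.03 and 5.84 in c-KIT+ cells. It fell by 2.03 ± 0.24 (SE; limma, adjusted p = 0.0116). Gm26788, which it overlaps, had 7.58 and 6.77, then 6.45 and 7.31, then 5.07 and 5.28, a difference of -2.0. In both Dst and Gm26788 the c-KIT+ arrays lay below the other 4. Sertad4 had 7.71 and 7.66, then 6.26 and 5.13, then 4.70 and 4.98, and fell by 2.84 ± 0.39 (adjusted p = 0.0166). The call of Sertad4 was also lost without untreated replicate 1 (adjusted p = 0.0639), and those of Dst and Rsbn1 without either c-KIT+ array (adjusted p up to 0.135). The antisense partner of Sertad4, Gm15867, differed by 0.49 instead, with 7.12 and 7.12, then 6.61 and 7.71, then 7.88 and 7.32.

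Prrx1, a homeobox factor of limb and facial mesenchyme, lies opposite Gm20471. It had 9.51 and 8.84 in untreated MEFs, 7.88 and 5.79 in CDH5+ cells and 5.76 and 6.05 in c-KIT+ cells. The difference of -3.27 ± 0.68 in c-KIT+ cells just missed the threshold (limma, adjusted p = 0.0517), with adjusted p between 0.0152 and 0.26 over the alternatives. Gm20471 had 7.85 and 6.45, then 6.28 and 5.71, then 5.03 and 5.46, and both of its probe sets were lower (-2.43 and -1.38). Nfic, a nuclear factor I protein opposite Gm16104, had 8.80 and 8.64, then 8.12 and 7.57, then 8.23 and 8.26. Its difference of -0.48 ± 0.25 (adjusted p = 0.356) stood beside the 3.87 of Gm16104.

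Of the 6 partners named by symbol, Dnm3, Prdm16, Pla2g10 and Rab26 lay under the olfactory receptor percentile on all 6 arrays, so that their differences are between values in the background. Besides Dnm3 and Phtf1 they were Abhd11 (0.37 in c-KIT+ cells), Prdm16 (-0.58), Pla2g10 (0.23) and Rab26 (-0.06), with adjusted p of 0.334, 0.157, 0.672 and 0.91. Prdm16, a factor of blood stem cells and brown fat, had 5.77 and 5.68, then 5.11 and 4.96, then 5.16 and 5.13, so that its sorted arrays lay below both untreated ones. The antisense RNAs of these 4 genes are 2010001M06Rik, Gm13111, 1810007I06Rik and 2610019E17Rik, and they differed by -0.45, -0.12, 0.16 and 0.52. Over the 33 partners the median difference was -0.11 in CDH5+ and 0.23 in c-KIT+ cells.

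**Figure D4:**
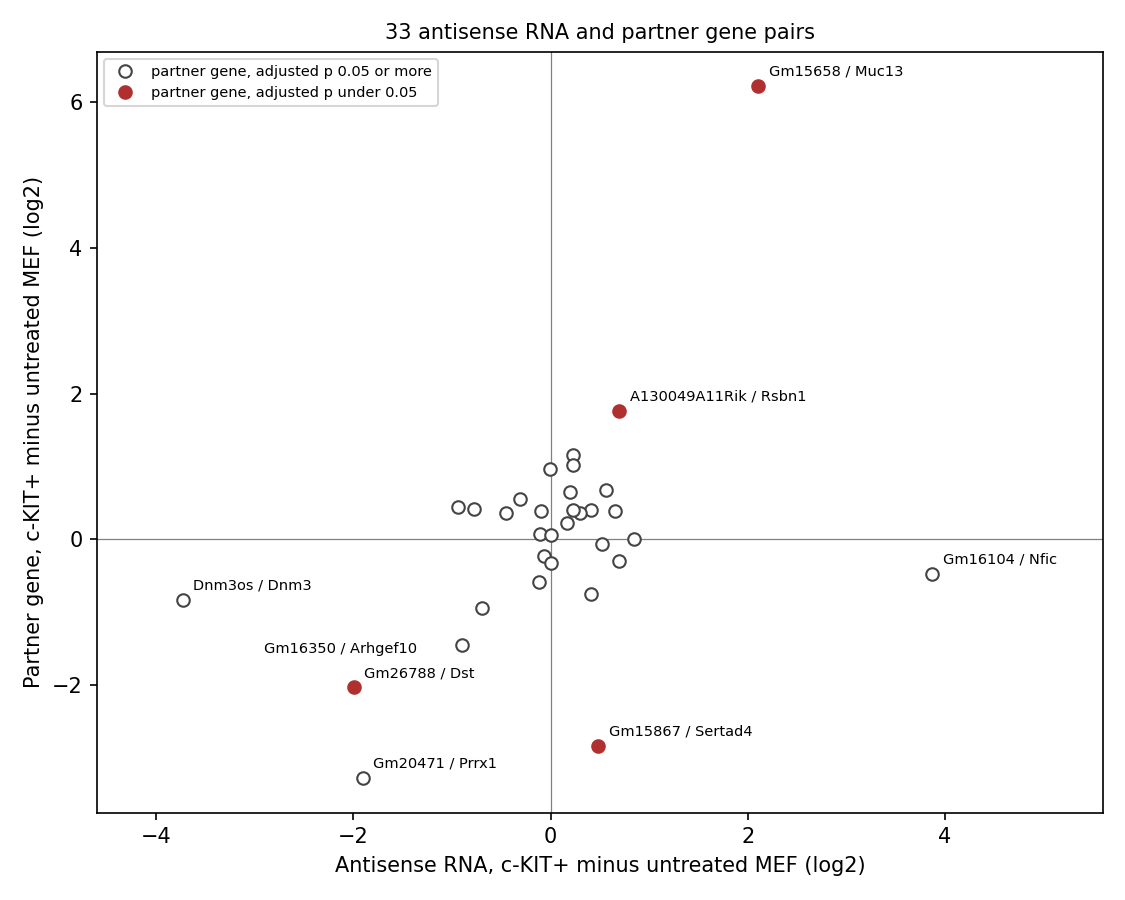
Each point is a pair, with the c-KIT+ minus untreated difference (log2) of the antisense RNA on the horizontal and of its partner gene on the vertical axis; filled points are partners with an adjusted p under 0.05 in limma. Gm15658 with Muc13 and Gm26788 with Dst lie where both moved one way, while Gm15867 with Sertad4 (0.49 and -2.84) and Gm16104 with Nfic (3.87 and -0.48) do not.

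RNAs known from work on antisense transcription were looked up whatever their level, and 20 of 23 had a row. The gene table gives 3 of the 20 another biotype, lincRNA for Fendrr, sense overlapping for Sox2ot and processed transcript for Hoxa11os. Limma called 1 of the 20 lower in c-KIT+ cells, none higher, and none in CDH5+ cells, beside 2.72% lower and 3.24% higher among all genes in c-KIT+ cells, the background for both lists that follow as well, and the median differences were 0.04 in CDH5+ and -0.11 in c-KIT+ cells. Airn, the imprinted RNA that silences Igf2r in the mouse, was the one called. It had 5.62 and 5.20, then 5.29 and 5.27, then 3.97 and 4.15, a difference of -1.35 ± 0.23 (adjusted p = 0.0299), and all its values lay under the 95th percentile of the olfactory receptors. Among 25 measured genes of RNA turnover, Exosc5, a subunit of the exosome, was higher in c-KIT+ cells. It had 6.60 and 7.65, then 7.70 and 7.20, then 9.18 and 9.36, a difference of 2.14 ± 0.39 (adjusted p = 0.0368). The other 24 were not called in c-KIT+ cells and none of the 25 in CDH5+ cells, and the list's median difference was 0.34 and -0.22. Its median gap between the untreated arrays, replicate 2 over replicate 1, was 0.58. Among 26 measured genes that bind, edit, cut or sense double-stranded RNA, 1 was called. Adarb1, an enzyme that edits adenosine in double-stranded RNA, fell in c-KIT+ cells by 1.68 ± 0.25 (adjusted p = 0.0215), from 6.16 and 6.39 to 4.54 and 4.66, with 5.54 and 6.07 in CDH5+ cells. The median of that list was 0.15 in c-KIT+ and -0.16 in CDH5+ cells. The calls of Airn and Exosc5 were lost with untreated replicate 1 or any 1 sorted array left out (adjusted p up to 0.229 and 0.221) and with the replicate number as a block (0.0589 for each), and that of Adarb1 without untreated replicate 1 or either c-KIT+ array (up to 0.178).

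The genes of both sort gates were higher in both sorted populations than in untreated MEFs. Kit differed by 2.50 in CDH5+ cells and by 3.62 in c-KIT+ cells (limma, adjusted p = 0.0085 and 0.00161). Cdh5, itself on the endothelial list, differed by 5.42 and 2.21 (adjusted p = 0.00269 and 0.0187). The median of 6 endothelial markers was 4.44 in untreated MEFs, against 7.93 in CDH5+ cells and 5.74 in those sorted for c-KIT. Of the 6, 5 were called higher in CDH5+ cells and 2, Cdh5 and Pecam1, in c-KIT+ cells. The 5 epithelial and 6 cell cycle markers had no call in either comparison with all arrays, while without untreated replicate 2 limma called 4 cell cycle markers in CDH5+ and 5 in c-KIT+ cells. Without untreated replicate 1 it called 2 epithelial markers in CDH5+ and 1 in c-KIT+ cells, and without untreated replicate 2 it called 1 in c-KIT+ cells. Replicate arrays correlated at 0.907 in untreated MEFs, 0.944 in CDH5+ and 0.969 in c-KIT+ cells over all genes, and the array medians lay between 5.54 and 5.62. With 2 arrays a group, 3 residual degrees of freedom limit the precision of every difference.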

How the data were processed

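Biotinylated single-stranded cDNA from total RNA was hybridised to 6 Mouse Exon 1.0 ST arrays, 2 for each group. The authors deposited log2 values for 26323 genes and 1236087 probe sets. Their normalization, software, annotation release and build were not found in the labels or in the text of the paper at hand. The arrays are biological replicates by the paper's account, which does not say how the cultures were separated, so p-values measure the spread between these arrays, which may be technical. Coordinates are printed only with RefSeq sequences. The strand of single probe sets was not checked, and the values of a gene and its antisense RNA were compared only as group differences.

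The deposited log2 gene values entered limma (version 3.58.1, under R 4.3.3) without a filter, and each group had its own mean in a fit over all 6 arrays. P-values were adjusted (Benjamini-Hochberg) over all 26323 genes, at a threshold of 0.05. The fit was tested on simulated data. Of 17449 genes with listed probe sets, 1324 (7.6%) equal the mean of those listed within 0.0001. A gene value was taken as a mean over probe sets, listed or not, whose number was found as the smallest that makes the products whole multiples of the table's precision. For RNAs with 1 or 2 probe sets these were found in the probe set table by their values, and for others the probe sets were not identified and the number is a minimum. Of the 73 RNAs, 35 matched RefSeq (GRCm38.p6), 6 of them by an older name, and 38 did not. RefSeq lists Fcor and 5430417L22Rik, there named Inafm2, as protein-coding.

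The members, lists, partners and tests were chosen with earlier results of these data known. Named by rule were RNAs named for a gene, tested RNAs with a call, the 5 highest means, the 3 largest rises and falls in each sorted group against untreated MEFs, the rows next to the threshold and called list genes. Overlapping and nearby partners, the microRNA hosts, the motifs, and Gm15658, Gm14453, Gm14964, Gm16104's and other RNAs' probe sets, 4930520K10Rik, Gm12744, Gm20659, Gm20471, Gm26788, Gm15867, Fcor, Gm12841, RP24-176F12.14 and Gt(ROSA)26Sor were chosen after their values were seen. Alternatives were a replicate block, each array left out, quantile normalization, median centring, a filter on dim genes, a row per symbol, an intensity trend, robust variances, the median of listed probe sets and other thresholds for membership.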

Additional observations from a re-analysis of the deposited data

How the results depend on the processing

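The number of expressed antisense RNAs follows from its threshold: it was 123 at 7, 47 at 8 and 36 with the mean over the arrays in place of the maximum. Leaving out 1 array at a time moved the genes called over the 3 groups between 86 and 1519 (868 with all arrays), between 67 and 339 in CDH5+ cells (310) and between 148 and 3025 in c-KIT+ cells (1570), each against untreated MEFs, with 0 between the sorted populations. Tested antisense RNAs called ran from 0 to 1 in CDH5+ cells and from 1 to 7 in c-KIT+ cells, and partner genes called from 1 to 3 and from 1 to 5. Without c-KIT+ replicate 1 or 2, a single antisense RNA (Gm11505) and a single partner (Muc13) stayed called in c-KIT+ cells. Without CDH5+ replicate 1 the partners called in CDH5+ cells were 3 (Muc13, Sertad4 and Prrx1), and without CDH5+ replicate 2 no tested antisense RNA was called there. A filter on dim genes raised the partners called in c-KIT+ cells from 4 to 7 and the RNA turnover genes from 1 to 2, and left 0 known antisense RNAs called, since Airn was filtered out. An intensity trend gave 2 calls each in the RNA turnover and double-stranded RNA lists in place of 1. With 1 array left out, calls in c-KIT+ cells ran from 0 to 1 among known antisense RNAs, from 0 to 5 in the RNA turnover list and from 0 to 5 in the double-stranded RNA list, with 5 in both lists without untreated replicate 2. Marker calls varied too: the 5 endothelial calls in CDH5+ cells ran from 1 to 6. No difference that was called changed sign. For single RNAs, partners and list genes, 5110 comparisons of 384 differences with 14 alternatives gave 35 lost calls, 32 gained calls and 268 values that moved by more than the spread between replicates or changed sign without a call, and the cause was not tested.

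The labels and the paper do not say whether same-numbered arrays share a preparation of cells, and the correlations that follow cannot settle it. Deviations of same-numbered arrays from their group means correlated at 0.12 between untreated MEFs and CDH5+ cells, at -0.015 between untreated MEFs and c-KIT+ cells and at -0.046 between the sorted populations. With the replicate number as a block, 481 genes were called over the 3 groups and 198 in CDH5+ cells, and the counts of tested antisense RNAs (1 and 5) and of partners (1 and 4) were as without it, while known antisense RNAs and RNA turnover genes had 0 calls in c-KIT+ cells in place of 1 each. Signal near background limits the differences of RNAs that fall below the olfactory receptor percentile in 1 group, and of partners that lie below it on all arrays.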
